A study of Mus musculus with 81 samples.

Results

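The 54 genes described here lie on the distal end of mouse chromosome 16 (Mmu16), between Jam2 and Zbtb21 (GRCm39 chr16:84570764-97763836, 13.2 Mb), in the stretch that Ts65Dn mice carry in an extra copy. They were taken by name from the 57010 gene identifiers of the count tables. A further 25 genes of the segment, such as App and Dyrk1a, are no members and serve for comparison. The rule also asked for a mean level of at least 1 CPM in a population (counts scaled to the depth of each library), and it used no difference between genotypes. The annotation placed 23 of the genes on the plus strand and 31 on the minus strand.

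The libraries came from hippocampal neurons cut out by laser capture microdissection (LCM), a method that lifts chosen cells from a stained section under a microscope. Each library pooled the neurons of 1 cell population from 1 mouse. Within a population the libraries are separate animals, and the p-values measure the spread between mice. Comparisons between populations took libraries of the same mouse as independent, unless the mouse was set as a block. The populations were CA1 pyramidal neurons (CA1 PNs), CA3 pyramidal neurons (CA3 PNs) and dentate gyrus granule cells (DGCs). Total RNA was sequenced to between 358355 and 4744036 counts a library, over 81 libraries from 28 mice.

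All mice were males of about 6 months of age (MO), bred from Ts65Dn females and F1 males of C57Bl/6J Eicher and C3H/HeSnJ. Trisomic mice (Ts) carry a small free extra chromosome that holds the distal end of Mmu16 and also a centromeric piece of Mmu17, so the Mmu16 genes are not the sole ones at 3 copies. Their disomic littermates (2N) lack it. Dams were kept through gestation and weaning on a normal choline diet (ChN, 1.1 g/kg choline) or on a choline-supplemented diet (ChP, 5.0 g/kg choline). The ChN diet gave 5 Ts and 6 2N libraries from CA1 PNs, 6 of each genotype from CA3 PNs, and 6 of each from DGCs. The ChP diet gave 9 Ts and 7 2N libraries from CA1 PNs, 7 of each from CA3 PNs, and 9 Ts and 7 2N from DGCs. In pooled neurons, fewer cells of a type and less RNA per cell cannot be told apart.

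An extra copy of a gene gives a cell 3 templates where it usually has 2, so a gene that follows its copy number is expected at 1.5-fold, and a smaller or larger difference is called dosage compensation or overdosage. The human counterparts of these genes sit mostly on chromosome 21 and are part of the trisomy of Down syndrome. Their known roles range from RNA splicing to protein breakdown and cell adhesion.

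Of the 54 genes, 46 reached a mean of 1 CPM in at least 1 population and 40 reached it in all 3. Ripk4 passed closest to that limit, at a mean of 1.28 CPM in DGCs, and Erg missed it most narrowly, at 0.927 CPM in CA3 PNs. CA1 PNs held 44 at this level, CA3 PNs 43 and DGCs 43. The 8 that stayed below were the transcription factors Runx1, Sim2 and Erg, the chromatin assembly subunit Chaf1b, the potassium channel Kcnj15, the matrix protease Adamts5, the secreted protein Fam3b and Map3k7cl. Their mean levels over all libraries were 0.604 CPM for Erg, 0.494 for Adamts5, 0.452 for Sim2, 0.343 for Runx1, 0.0745 for Chaf1b, 0.00921 for Map3k7cl and 0.00598 for Kcnj15. Fam3b had no count in any library, which over all 81 libraries allows a level of up to 0.0296 CPM at 3 counts. The dose of these 8 genes could not be read at this depth.

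Compared per length, in TPM (transcripts scaled to a fixed total) in 2N mice, Ttc3 was the most abundant of the genes. Its mean TPM was highest in CA3 PNs, at 632, against 394 in DGCs and 361 in CA1 PNs. Ttc3 encodes a ubiquitin ligase with tetratricopeptide repeats. Son, a large RNA-binding protein of nuclear speckles needed for splicing, came next in DGCs, with 126 TPM, and in CA1 PNs, with 82.8 TPM, and was at 83.8 TPM in CA3 PNs, where Dop1b was at 84.4 TPM. Hunk, a kinase, stood at 29.7 TPM in CA1 PNs against 6.97 in CA3 PNs, and DGCs had 0.992.

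The genotype labels were checked by summing the genes of each library that reached the level rule (the plot of summed levels). The label of the CA3 library of mouse 15-145 reads Ts, while both other libraries of that mouse read 2N, and it was used here as 2N. Its summed level of 3931 CPM lay above the other 2N CA3 libraries on the ChN diet, at 3442 to 3694, and below the Ts range of 5197 to 5812. The CA1 library of mouse 17-154, labelled 2N, went against its label. Its sum was 4952 CPM, against 3204 to 3541 in the other 5 2N libraries and 4900 to 5213 in the 5 Ts libraries. The 25 other Mmu16 genes summed there to 6220 CPM, against 3693 to 4340 in the other 2N libraries and 5311 to 5990 in Ts. Its summed CA1 and CA2 markers were at 1011 and 514 CPM. The CA3 and DG libraries of the same mouse, at 3574 and 3438 CPM, lay among the 2N libraries. The counts in CA1 PNs on the ChN diet, and the LFC of the genes described there, are therefore also given without this library, while ranges and tallies over the 6 comparisons hold it unless stated. The fits of the dose in CA1 PNs with both diets, and of all libraries together, also hold it and were not run without it.

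**Figure D1:**
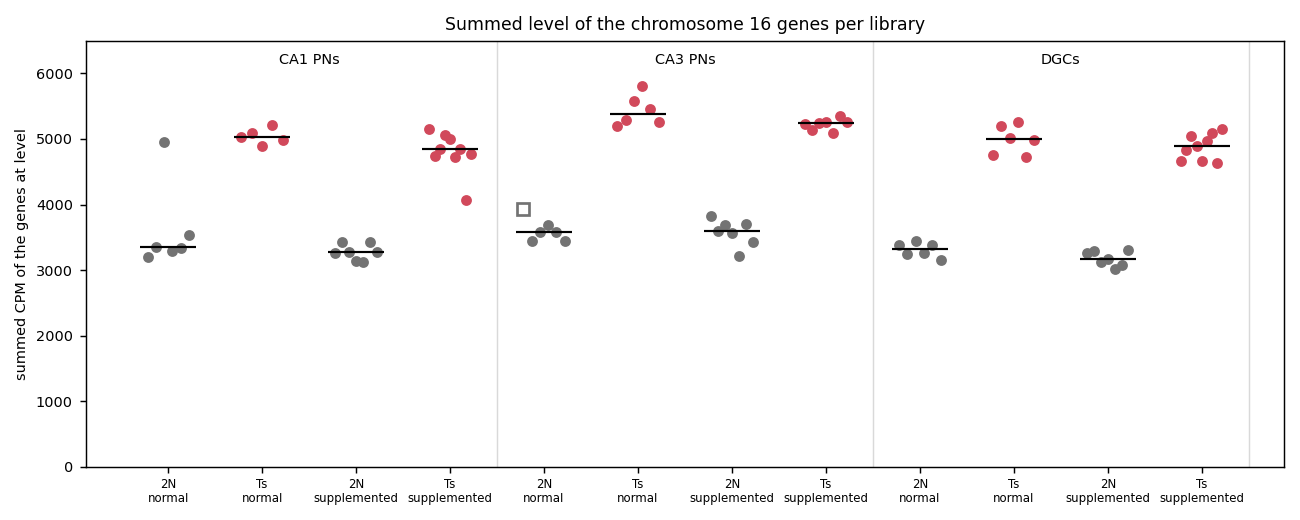
Summed level in CPM of the genes at or above 1 CPM in each population, on the vertical axis, for every library (grey 2N, red Ts, bar at the group median) by population and diet. In CA1 PNs on the normal diet 1 library labelled 2N sits at 4952 CPM among the Ts libraries, and the open square marks the CA3 library whose own label reads Ts, at 3931 CPM.

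The CA1 libraries also differed in how much they held of the neighbouring CA2 field. The summed CPM of 6 CA2 markers was 514 to 1773 in 8 libraries, 3 of them Ts, and 71 to 431 in the other 19. Dscam, a homophilic adhesion molecule, was at 87.8 to 224 CPM in the 8 libraries and at 62.3 to 141 CPM in the others. Adamts1, a secreted protease of the extracellular matrix, was at 13.7 to 112 CPM and at 2.08 to 26.8 CPM. The Ts library with the lowest sum in CA1 PNs, 4065 CPM from mouse 16-272 on the ChP diet, had 68.2 CPM of 6 CA1 markers and 1280 CPM of the CA2 markers. The 2N CA1 library of mouse 17-21 on the ChN diet had 90.5 CPM of the CA1 and 1769 CPM of the CA2 markers. It held 562 CPM of 5 CA3 markers, with Dscam at 192 and Adamts1 at 112 CPM. The 2N library of mouse 15-336 on the ChP diet had 173 and 1773 CPM of the CA1 and CA2 markers. The part of these differences in the CA1 results was not tested. All 7 oligodendrocyte markers were detected in every group, with a median sum between 128 and 334 CPM, and at 185 in Ts and 173 in 2N DGCs on the ChN diet. On the same diet, 6 inhibitory neuron markers in CA3 PNs had a median sum of 153 CPM in Ts and 260 CPM in 2N. Their ranges were 124 to 168 and 137 to 356 CPM. The Ts median was the higher one in DGCs on the ChP diet alone, at 274 against 206 CPM. The part of these marker differences in the dose was not tested.

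Ts mice expressed most of the genes above 2N mice in every population, with medians close to the dose of 1.5-fold in CA3 PNs and DGCs. Over the 6 comparisons of Ts with 2N (3 populations, 2 diets) 251 tests could be made, 171 passed an unadjusted p under 0.05 as higher in Ts, and 0 passed as lower. Of all genes, 1.99%, 4.3% and 3.96% passed as lower in CA1 PNs, CA3 PNs and DGCs with the ChN diet, and 1.46%, 2.32% and 3.65% with the ChP diet. The log2 fold change (LFC) of Ts over 2N, its 95% interval and its p came from edgeR's quasi-likelihood test over all genes, and the p adjusted by Benjamini-Hochberg covers all genes tested. The dose test asked the same fit for a difference from an LFC of 0.58, that is from 1.5-fold, at an unadjusted p under 0.05, so that a gene passed where its 95% interval left 0.58 out. It passed in 22 of the 251 tests, 6 above and 16 below 1.5-fold. Genes truly at 1.5-fold are expected to pass at a rate of 0.05, both sides together, and the 6 above are no more than that. Of all genes, 0.0163%, 0.186% and 0.164% lay above 1.5-fold in CA1 PNs, CA3 PNs and DGCs with the ChN diet, and 57.7%, 66.4% and 63.3% below it. In ChP-diet mice 0.0769%, 0.0641% and 0.184% lay above and 56.9%, 64.3% and 60.8% below. Most of all genes are not triplicated, so these shares are no reference for genes at 1.5-fold. Of the 22, 8 held when any 1 library was left out, and 14 were lost without at least 1 library.

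In CA1 PNs on the ChN diet, 17 of the 41 genes tested were higher in Ts, against 1.78% of all genes, with a median LFC of 0.42 (1.34-fold). At an adjusted p under 0.05 edgeR passed 0 of them (0.00814% of all genes), and at an unadjusted p under 0.05 DESeq2 passed 16 and limma-voom 19. In 22 of the 41 the interval held both no difference and 1.5-fold, so the dose was undetermined. Every Ts library lay above every 2N library for 4 genes, against 0.293% of all genes. Without the library of mouse 17-154, 25 of 39 genes were higher, against 1.74% of the 11341 genes tested in that fit, and 2 of them at an adjusted p under 0.05, against 0.0265%. The median LFC was then 0.54 (1.45-fold), and 12 genes did not overlap, against 0.626%. The 2 genes were Son (LFC 0.66, adjusted p = 0.0247, edgeR) and Cryzl1, a quinone oxidoreductase-like protein (LFC 0.97, 0.64 to 1.3, adjusted p = 0.0352). Cryzl1 was also the 1 gene above 1.5-fold in that fit, against 0.0441% of all genes, and 0 lay below.

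In CA3 PNs on the ChN diet, 33 of 41 genes were higher in Ts, against 4.9% of all genes, and 18 of them also passed at an adjusted p under 0.05, against 0.528%. The median LFC was 0.54 (1.46-fold), and 15 genes had every Ts library above every 2N library, against 0.602% of all genes. With the library of mouse 15-145 placed under its own label of Ts, 28 genes were higher. On the same diet in DGCs, 33 of 41 genes were higher, against 4.55% of all genes, 11 of them at an adjusted p under 0.05, against 0.439%. The median LFC there was 0.56 (1.48-fold) and 10 genes did not overlap, against 0.484%.

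In CA1 PNs on the ChP diet 26 of 44 genes were higher in Ts, against 2.14% of all genes, 2 of them (Son and Ttc3) at an adjusted p under 0.05 (0.049%), with a median LFC of 0.45 (1.36-fold). In CA3 PNs on that diet 30 of 42 were higher, against 2.67%, 14 at an adjusted p under 0.05 (0.235%), with a median LFC of 0.54 (1.45-fold). In DGCs 32 of 42 were higher, against 3.95%, 16 at an adjusted p under 0.05 (0.36%), with a median LFC of 0.58. Genes without overlap numbered 5, 13 and 12 in the same order, against 0.0839%, 0.242% and 0.24% of all genes. The median LFC of all genes tested lay between -0.01 and 0.02 in the 6 comparisons.

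**Figure D2:**
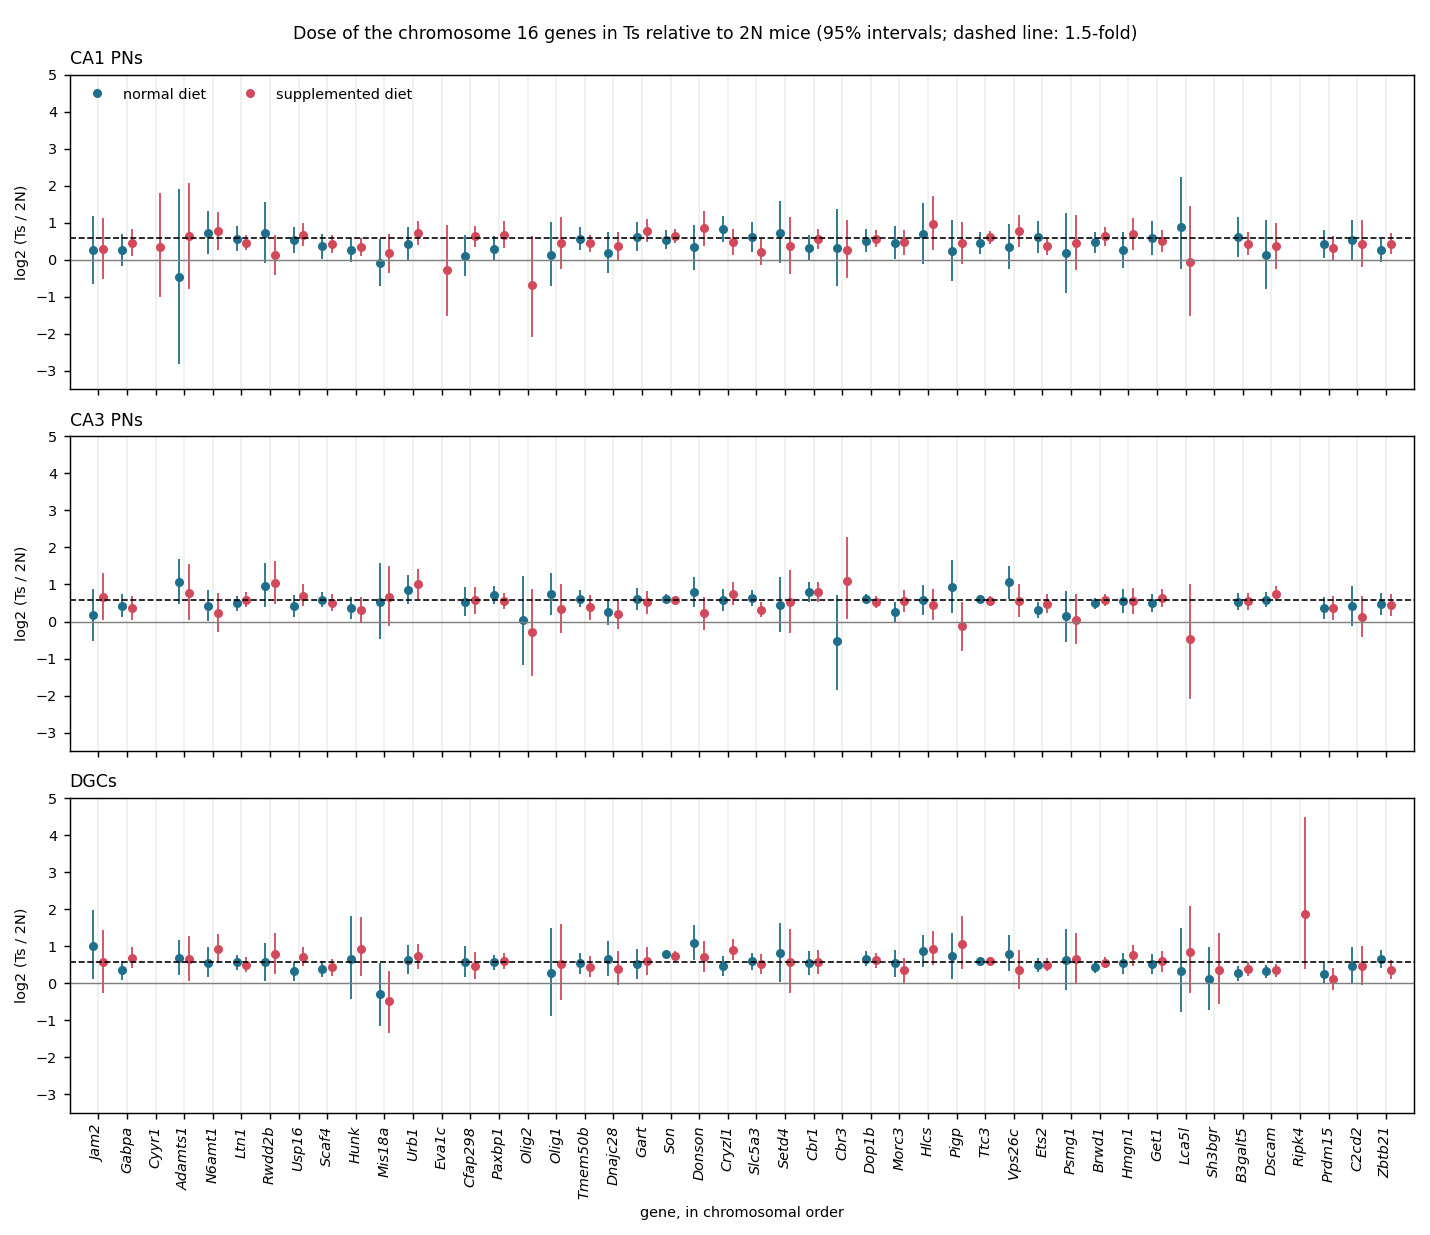
LFC of Ts over 2N (vertical axis, log2) with its 95% interval for each gene in chromosomal order, in a panel for each population, blue for the normal and red for the supplemented diet. Most points lie between the line at 0 and the dashed line at 1.5-fold or on the latter, with medians of 0.42 to 0.58, and the widest interval is that of Adamts1 in CA1 PNs on the normal diet, -2.83 to 1.90.

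Of the 46 genes at level, 39 could be tested in all 6 comparisons. Among these, 14 were higher in Ts in 6 of 6 comparisons: Ltn1, Usp16, Scaf4, Tmem50b, Gart, Son, Cryzl1, Dop1b, Morc3, Ttc3, Ets2, Brwd1, Get1 and B3galt5. A further 10 were higher in 5 of 6. The share of all genes higher in that many comparisons is not given here. In single comparisons 1.78% to 4.9% of all genes were higher, which also stands beside the tallies of the role groups below. The populations of a diet came from the same mice, so the 6 comparisons are not independent. With the CA1 comparison on the ChN diet taken without the library of mouse 17-154, 19 were higher in 6 of 6, the 5 added being Paxbp1, Urb1, Cbr1, Hlcs and Hmgn1. Mis18a and C2cd2 were tested in all 6 and passed in 0. The dose test separated 15 genes from 1.5-fold in at least 1 comparison, and 6 of them on the same side in 2 or more. Son lay above, while B3galt5, Dscam, Prdm15, Mis18a and Slc5a3 lay below (the plot of genes off 1.5-fold).

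**Figure D3:**
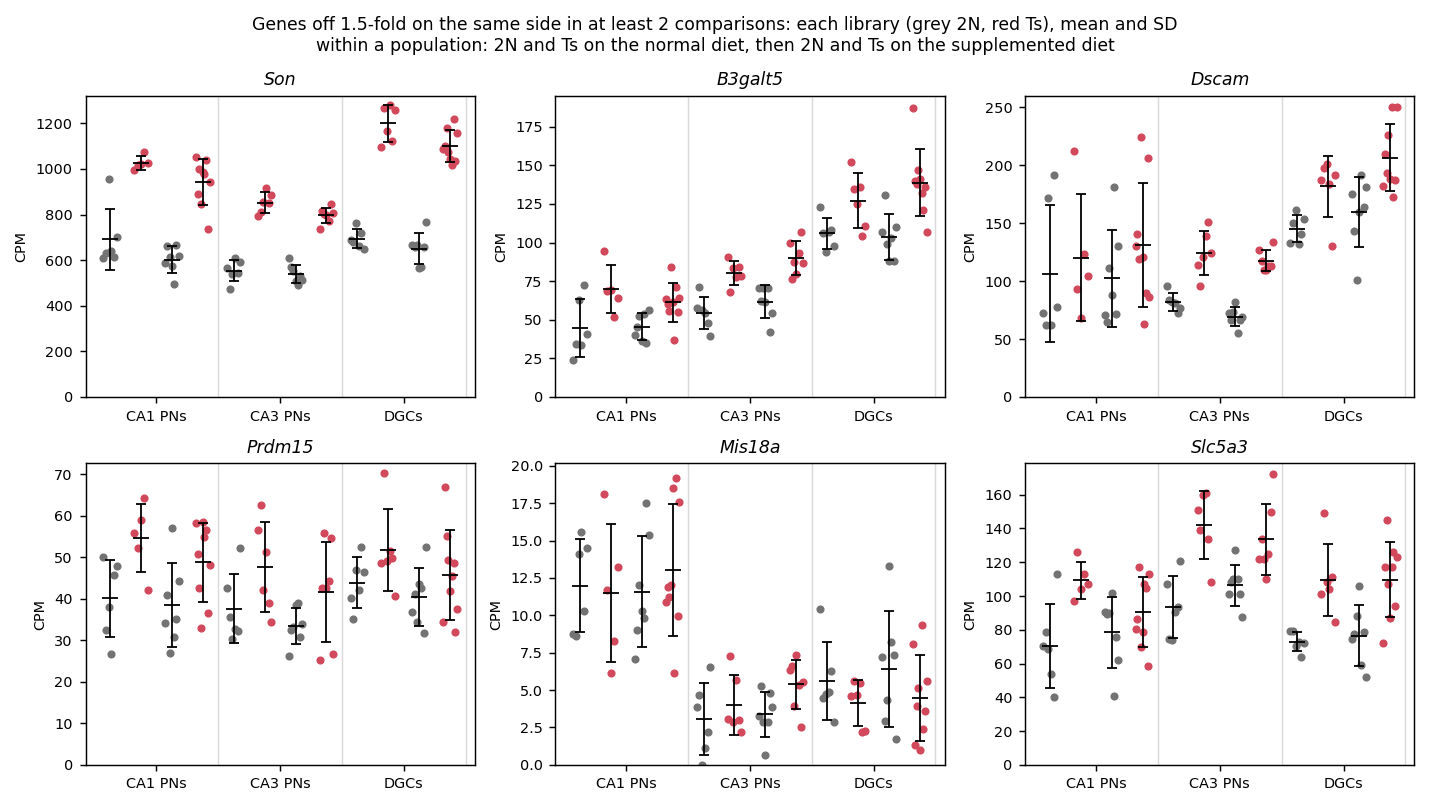
CPM (vertical axis) in every library of Son, B3galt5, Dscam, Prdm15, Mis18a and Slc5a3, by population and diet, grey 2N and red Ts, with the mean and SD. Son shows the widest gap between genotypes in DGCs, where Ts libraries run from 1018 to 1281 CPM and 2N libraries from 566 to 768, while the Mis18a groups overlap throughout.

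The 5 genes of RNA processing, ribosome assembly and replication had the highest median LFC of the 8 role groups, 0.61, with 26 of 30 tests higher in Ts, 4 above 1.5-fold and 0 below. Son in DGCs on the ChN diet ran from 1097 to 1281 CPM (median 1214) in Ts and from 649 to 763 CPM (median 684) in 2N. With the ChP diet it ran from 1018 to 1219 CPM (median 1087) in Ts and from 566 to 768 CPM (median 659) in 2N. The groups did not overlap on either diet. The LFC was 0.78 (95% interval 0.66 to 0.90, 1.72-fold) and 0.75 (0.62 to 0.87, 1.68-fold), with edgeR adjusted p-values of 2.18e-15 and 7.91e-16, and both intervals lay above 0.58. Both calls held without any 1 library. With both diets in 1 fit, an alternative chosen after seeing the data, Son in DGCs was at 1.71-fold (1.61 to 1.81).

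In CA3 PNs Son was at 793 to 918 CPM (median 853) in Ts and 475 to 608 CPM (median 555) in 2N on the ChN diet, again without overlap, with an LFC of 0.62 (0.50 to 0.74). In CA1 PNs the 5 Ts libraries on the ChN diet held 996, 1015, 1020, 1026 and 1076 CPM. The 6 2N libraries held 609 to 955 CPM (median 636), the highest being that of mouse 17-154, and the LFC was 0.54 (0.29 to 0.80), or 0.66 (0.45 to 0.87) without it. None of these values was separated from 1.5-fold. The difference of the Son LFC between populations, tested in 1 fit of all 81 libraries, was -0.16 for CA1 PNs less DGCs and -0.18 for CA3 PNs less DGCs. Both passed at an unadjusted p under 0.05, and neither after adjustment over all genes in edgeR (adjusted p = 0.764 and adjusted p = 0.647). That fit held the library of mouse 17-154 and was not run without it.

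Donson, which acts in replication fork stability, lies across Son on the opposite strand over 12855 bases. In DGCs on the ChN diet it ran from 19.5 to 31.3 CPM (median 27.7) in Ts and from 5.25 to 20.4 CPM (median 12.2) in 2N, so that the groups touched at their edges. Its LFC was 1.10 (0.64 to 1.57), above 1.5-fold, a call that ended without any of 5 libraries (2N of mice 15-147, 17-21 and 17-56, Ts of mice 17-153 and 17-157). On the ChP diet in the same cells its LFC was 0.72 and not separated from 1.5-fold. Donson lay above 1.5-fold in DGCs with both diets in 1 fit. The strand setting of the counting is not given in the sources used here, so reads from Son and Donson may not be fully told apart.

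Urb1, a ribosome assembly factor, was above 1.5-fold in CA3 PNs on the ChP diet (LFC 1.02, 0.62 to 1.43), which was lost in 6 of 14 fits that left out 1 library (2N of mice 14-125, 15-334, 15-336 and 16-273, Ts of mice 15-245 and 16-206). With both diets in 1 fit it was at 1.91-fold there (1.58 to 2.32). Scaf4, which acts in transcription termination, was higher in 6 of 6 comparisons with an LFC of 0.36 to 0.59. Paxbp1, a protein linked to PAX transcription factors, was higher in 5 of 6 with an LFC of 0.30 to 0.72, and did not overlap between genotypes in 4. None of the Scaf4 or Paxbp1 values in the 6 comparisons was separated from 1.5-fold. With both diets in 1 fit, Scaf4 in DGCs was higher in Ts but below 1.5-fold.

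The 8 genes of translation, ubiquitin and protein folding were all at level, and 35 of 48 tests were higher in Ts. The median LFC was 0.56. Ttc3 in CA3 PNs ran from 2225 to 2588 CPM (median 2344) in Ts and from 1467 to 1781 CPM (median 1527) in 2N on the ChN diet. In DGCs it ran from 1297 to 1669 CPM (median 1469) against 882 to 1020 CPM (median 988). Neither pair of groups overlapped. The LFC was 0.61 (0.51 to 0.71) in CA3 PNs and 0.59 (0.48 to 0.71) in DGCs, that is 1.52-fold and 1.51-fold.

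In CA1 PNs on the ChN diet the Ts libraries held 1403, 1613, 1655, 1676 and 1768 CPM of Ttc3 and the 2N libraries 919 to 1675 CPM (median 1110). The groups overlapped through the library of mouse 17-154 alone, and the LFC was 0.45 (0.16 to 0.74), or 0.59 without that library. On the ChP diet the LFC of Ttc3 was 0.60 in CA1 PNs and 0.56 and 0.61 in CA3 PNs and DGCs, with no overlap in any of them. Over the 6 comparisons Ttc3 kept within an LFC of 0.45 to 0.61, and the dose test passed in 0 of them.

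Ltn1, the ligase that tags stalled nascent chains on ribosomes, was higher in 6 of 6 comparisons with an LFC of 0.45 to 0.58. Get1, a receptor for tail-anchored proteins at the endoplasmic reticulum, was higher in 6 of 6 with an LFC of 0.49 to 0.63. Usp16, a histone H2A deubiquitinase, was higher in 6 of 6 with an LFC of 0.32 to 0.72. Usp16 in DGCs on the ChN diet was below 1.5-fold (0.32, 0.06 to 0.58), which was lost in 5 of 12 fits that left out 1 library (2N of mice 15-145, 17-172 and 17-21, Ts of mice 16-357 and 17-192). N6amt1, a methyltransferase of the release factor eRF1, was higher in 5 of 6.

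Rwdd2b was higher in 4 of 6, with the lowest LFC, 0.12, in CA1 PNs and the highest, 1.04, in CA3 PNs, both on the ChP diet. Psmg1, a proteasome assembly chaperone, and Dnajc28, a DnaJ protein, were each higher in 1 of 6, both in DGCs. In CA3 PNs Psmg1 had an LFC of 0.14 and 0.05 on the ChN and ChP diet. With both diets in 1 fit, Psmg1 and Dnajc28 lay below 1.5-fold in CA3 PNs, and Rwdd2b lay above it.

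Among the 6 chromatin genes, 5 were at level and 18 of 30 tests were higher, with a median LFC of 0.53. Brwd1, a bromodomain protein, was the most highly counted of them and was higher in 6 of 6 comparisons. In DGCs on the ChN diet it ran from 292 to 349 CPM (median 328) in Ts and from 212 to 257 CPM (median 236) in 2N, without overlap. Its LFC was 0.44 (0.29 to 0.59) there and 0.44 to 0.63 over the 6 comparisons, with 0 separated from 1.5-fold. Hmgn1, a nucleosome-binding protein, was higher in 5 of 6 with an LFC of 0.26 to 0.76, and Morc3, a nuclear body ATPase, in 6 of 6 with an LFC of 0.27 to 0.56. Morc3 lay below 1.5-fold in CA3 PNs on the ChN diet (0.27), but not without the 2N library of mouse 15-145 or the Ts library of mouse 16-357. Setd4, a SET domain methyltransferase, was higher in 1 of 6.

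Mis18a, a protein that licenses centromeric nucleosome loading, was the one chromatin gene at level with no test higher in Ts. In DGCs on the ChN diet it ran from 2.16 to 5.63 CPM (median 4.65) in Ts and from 2.84 to 10.4 CPM (median 4.78) in 2N. With the ChP diet it ran from 0.974 to 9.34 CPM (median 3.93) and from 1.75 to 13.3 CPM (median 7.21). The groups overlapped over most of their range. The LFC was -0.30 (-1.16 to 0.54) and -0.49 (-1.34 to 0.33), each below 1.5-fold, and both intervals held 0. The ChN call ended without the 2N library of mouse 15-145 or 17-21 or the Ts library of mouse 17-173 or 17-192, and the ChP call without the 2N library of mouse 15-334.

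In CA1 PNs on the ChN diet, the 5 Ts libraries held 6.15, 8.3, 11.7, 13.2 and 18.1 CPM of Mis18a and the 2N libraries 8.63 to 15.6 CPM (median 12.2). The LFC was -0.08 (-0.72 to 0.57), and without the library of mouse 17-154 it was -0.02 and no longer separated from 1.5-fold. It also ended without the 2N library of mouse 17-172 or 17-56 or the Ts library of mouse 16-490, 17-153 or 17-157. In CA3 PNs its LFC was 0.54 and 0.67, with intervals from -0.48 to 1.59 and from -0.13 to 1.51 that held both no difference and 1.5-fold. With both diets in 1 fit, DGCs were at 0.76-fold (0.50 to 1.14). At a mean of 3.06 to 12 CPM in 2N mice these values rest on few counts in each library.

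The 5 genes of membrane trafficking and lipid anchors had 19 of 30 tests higher and a median LFC of 0.53. Dop1b, a protein of endosome to Golgi traffic, was higher in 6 of 6. In CA3 PNs on the ChN diet it ran from 262 to 321 CPM (median 305) in Ts and from 181 to 215 CPM (median 194) in 2N, without overlap, and its LFC was 0.61 (0.46 to 0.75). Tmem50b, a small membrane protein, was higher in 6 of 6 with an LFC of 0.38 to 0.61. Vps26c, a retriever subunit that recycles cargo from endosomes, was above 1.5-fold in CA3 PNs on the ChN diet (1.06, 0.62 to 1.5), which was lost without any of 6 libraries (2N of mice 15-147, 17-154 and 17-172, Ts of mice 17-153, 17-157 and 17-192).

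Pigp, an enzyme subunit of the first step of GPI anchor synthesis, ranged from an LFC of -0.12 in CA3 PNs on the ChP diet, below 1.5-fold, to 1.07 in DGCs on the same diet. The former was lost in 7 of 14 fits that left out 1 library (2N of mice 14-125, 15-296 and 15-334, Ts of mice 14-90, 15-199, 15-36 and 16-206). C2cd2, a C2 domain protein, was tested in all 6 comparisons and passed in 0, with an LFC of 0.13 to 0.52. No C2cd2 value was separated from 1.5-fold either. With both diets in 1 fit, C2cd2 was higher in Ts at an unadjusted p under 0.05 in CA1 PNs and DGCs. C2cd2 lies over Zbtb21 on the same strand for 19242 bases, so reads may be split between them.

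Among the 8 genes of metabolism and transport, 7 were at level and 34 of 40 tests were higher, with a median LFC of 0.57. Gart, an enzyme of purine synthesis, was higher in 6 of 6 with an LFC of 0.51 to 0.78. Cbr1, a carbonyl reductase, was higher in 5 of 6 and with both diets in 1 fit lay above 1.5-fold in CA3 PNs. Hlcs, which attaches biotin to carboxylases, was higher in 5 of 6 with an LFC of 0.45 to 0.97, and lay above 1.5-fold in DGCs with both diets in 1 fit. Cryzl1 was above 1.5-fold in DGCs on the ChP diet (0.91, 0.63 to 1.21), with 50.7 to 74.9 CPM in Ts (median 64.2) and 19.9 to 45 CPM in 2N (median 31.6). Those groups did not overlap. The dose call ended without the 2N library of mouse 15-334 or the Ts library of mouse 14-90. Cryzl1 also lay above 1.5-fold in CA1 PNs on the ChN diet without the library of mouse 17-154. Cbr3, the second carbonyl reductase, was tested in 4 comparisons and was higher in 1, in CA3 PNs on the ChP diet (1.10).

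B3galt5, a galactosyltransferase of glycolipid synthesis, was higher in Ts in 6 of 6 comparisons but below 1.5-fold in DGCs. On the ChN diet its DGC libraries ran from 104 to 152 CPM (median 130) in Ts and from 94 to 123 CPM (median 107) in 2N. With the ChP diet they ran from 107 to 187 CPM (median 138) and from 88.1 to 131 CPM (median 103). Both pairs of groups overlapped. The LFC was 0.27 (0.07 to 0.47) and 0.39 (0.19 to 0.58). The first held without any 1 library, while the second held under 3 of 8 other settings and in 4 of 16 such fits, the 4 being those without 2N mouse 15-334 or 16-273 or Ts mouse 14-90 or 15-199. In CA3 PNs, with 67.8 to 90.4 CPM in Ts (median 81) against 39.2 to 71 CPM in 2N (median 55.4) on the ChN diet, the LFC was 0.53 and not separated from 1.5-fold. The difference of the B3galt5 LFC between CA3 PNs and DGCs was 0.19 with both diets and did not pass (adjusted p = 0.884, edgeR).

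Slc5a3, the sodium and myo-inositol cotransporter, shares its locus with Mrps6 on the same strand over 29397 bases. In CA3 PNs it ran from 108 to 161 CPM (median 145) in Ts and from 73.9 to 121 CPM (median 91.9) in 2N on the ChN diet. With the ChP diet it ran from 110 to 172 CPM (median 125) and from 87.3 to 127 CPM (median 108). The groups overlapped on both diets, more on the second. The LFC was 0.63 (0.41 to 0.85) on the ChN diet and 0.32 (0.12 to 0.53) on the ChP diet, and the latter call held without any 1 library.

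Slc5a3 in CA1 PNs on the ChP diet ran from 58.3 to 117 CPM (median 86.5) in Ts and from 40.5 to 102 CPM (median 89.3) in 2N. Its LFC there was 0.20 (-0.15 to 0.55), a call lost in 6 of 16 fits that left out 1 library (2N of mice 14-125, 15-269, 15-296 and 15-334, Ts of mice 15-199 and 16-272). On the ChN diet in CA1 PNs the Ts libraries held 96.8, 104, 107, 113 and 126 CPM and the 2N libraries 40.1 to 113 CPM (median 69.2), with an LFC of 0.61, or 0.60 without the library of mouse 17-154. In DGCs the LFC was 0.59 and 0.52, neither separated from 1.5-fold. Slc5a3 was higher in Ts and not separated from 1.5-fold in any population with both diets in 1 fit.

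Of the 9 transcription factors, 6 were at level, and 20 of 33 tests were higher with a median LFC of 0.37. Ets2 was higher in 6 of 6. In DGCs on the ChN diet it ran from 149 to 179 CPM (median 173) in Ts and from 93.2 to 144 CPM (median 122) in 2N, without overlap, with an LFC of 0.49 (0.30 to 0.68). In CA3 PNs on the ChN diet it ran from 71 to 99.5 CPM (median 84.7) and from 62.3 to 73.4 CPM (median 68.1), overlapping at the edge. The LFC was 0.31 (0.10 to 0.52), below 1.5-fold, with or without any 1 library.

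Gabpa, the DNA-binding subunit of GA-binding protein and another ETS factor, was higher in 5 of 6 with an LFC of 0.26 to 0.69. Zbtb21, a zinc finger repressor, was higher in 5 of 6 and in CA1 PNs on the ChN diet was at 0.25 (-0.05 to 0.56). Without the library of mouse 17-154 that value was 0.27 and no longer separated from 1.5-fold, and it also ended without the 2N library of mouse 17-56 or the Ts library of mouse 16-490, 17-153 or 17-173. Zbtb21 in CA1 PNs was higher in Ts but below 1.5-fold with both diets in 1 fit, which held the library of mouse 17-154. Olig1 and Olig2, the factors that mark the oligodendrocyte lineage, averaged at most 10.9 and 2.14 CPM in a population and were higher in 1 of 6 and 0 of 3 tests. Olig2, at a mean of 1.84 CPM in CA1 PNs, lay below 1.5-fold there with both diets in 1 fit.

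Prdm15, a zinc finger regulator of pluripotency and neural patterning genes, was higher in 3 of 6 comparisons. In DGCs it ran from 40.6 to 70.4 CPM (median 49.5) in Ts and from 35.2 to 52.5 CPM (median 44.3) in 2N on the ChN diet. With the ChP diet it ran from 32.1 to 66.9 CPM (median 45.5) and from 31.8 to 52.6 CPM (median 41.1). The groups overlapped over most of their range. The LFC was 0.26 (-0.02 to 0.54) and 0.11 (-0.18 to 0.41). The first ended without the 2N library of mouse 17-21 or the Ts library of mouse 17-192, and the second held without any 1 library. With both diets in 1 fit, Prdm15 was at 1.14-fold in DGCs (0.99 to 1.31), and at 1.29-fold in CA3 PNs (1.11 to 1.5).

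Of the 10 genes of the cell surface, matrix, secreted proteins and kinases, 7 were at level, and 14 of 27 tests were higher with a median LFC of 0.37. Dscam in DGCs ran from 130 to 201 CPM (median 189) in Ts and from 132 to 161 CPM (median 146) in 2N on the ChN diet. With the ChP diet it ran from 173 to 250 CPM (median 193) and from 101 to 192 CPM (median 164). On the ChN diet the lowest Ts library lay below every 2N library. The LFC was 0.32 (0.14 to 0.50) and 0.35 (0.17 to 0.53), that is 1.25-fold and 1.27-fold, and both calls held without any 1 library.

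In CA3 PNs Dscam ran from 96 to 151 CPM (median 122) in Ts and from 72.6 to 96.1 CPM (median 81.8) in 2N on the ChN diet, and from 110 to 134 CPM (median 113) and 54.9 to 82.2 CPM (median 68.9) on the ChP diet. The LFC was 0.59 and 0.75, neither separated from 1.5-fold. The difference between CA3 PNs and DGCs, 0.32 with both diets, did not pass (adjusted p = 0.873, edgeR). In CA1 PNs the Ts libraries on the ChN diet held 68.6, 93.4, 104, 123 and 212 CPM and the 2N libraries 62.3 to 192 CPM (median 75.2), and the dose was undetermined (LFC 0.14, -0.79 to 1.08), also without the library of mouse 17-154 (0.34, -0.59 to 1.27).

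Hunk was higher in Ts in 3 of 6 comparisons with an LFC of 0.27 to 0.94. It did not pass in CA1 PNs on the ChN diet (0.27), but passed without the library of mouse 17-154 (0.39, 0.09 to 0.69). With both diets in 1 fit Hunk was below 1.5-fold in CA1 PNs (1.25-fold, 1.10 to 1.43) and CA3 PNs (1.27-fold, 1.09 to 1.48). The CA1 fit of both diets held the library of mouse 17-154, with Hunk at 274 CPM, and was not run without it. Adamts1 was higher in 4 of 6, all in CA3 PNs and DGCs, with an LFC of 0.66 to 1.07 there. In CA1 PNs its interval on the ChN diet, -2.83 to 1.90, was the widest among the 54 genes, and it was -3.22 to 2.09 without the library of mouse 17-154. Jam2, a junctional adhesion molecule, was higher in 2 of 6. Ripk4, a kinase of epithelial cells tested in DGCs on the ChP diet only, had a median of 2.02 CPM in Ts and 0 in 2N, and its interval of 0.38 to 4.48 left its dose unread. Cyyr1 and Eva1c were tested in CA1 PNs on the ChP diet only and did not pass.

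Of the 3 remaining genes, Cfap298, a protein needed for ciliary motility, was higher in 5 of 6 comparisons. In DGCs on the ChN diet it ran from 23 to 25.4 CPM (median 24.3) in Ts and from 8.93 to 25.1 CPM (median 14.6) in 2N, overlapping at the top of the 2N range, and its LFC was 0.58 (0.16 to 1.02). In CA1 PNs on the ChN diet its LFC was 0.11 (-0.45 to 0.67), or 0.25 (-0.34 to 0.84) without the library of mouse 17-154. Lca5l, a lebercilin-like protein, was tested in 5 comparisons and Sh3bgr in 2, and neither passed in any. Lca5l lies across Get1 on the opposite strand over 33865 bases.

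Whether the diet of the dams changed the dose was asked by the interaction of genotype and diet in each population. It passed at an unadjusted p under 0.05 for 0 of 44 genes in CA1 PNs (3.22% of all genes). It passed for 2 of 43 both in CA3 PNs (4.87%) and in DGCs (3.97%). DESeq2 and limma-voom also passed 0 in CA1 PNs, and edgeR passed 1 without the library of mouse 17-154. In CA3 PNs the 2 were Slc5a3, at -0.30 for the ChP less the ChN diet, and Pigp, at -1.05. In DGCs they were Usp16, at 0.40, and Cryzl1, at 0.46. No gene passed at an adjusted p under 0.05 in edgeR, the smallest adjusted p being 0.983 in CA3 PNs.

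Whether the dose differed between populations was asked in the same way within each diet. Between CA1 PNs and CA3 PNs, 2 of 43 genes passed an unadjusted p under 0.05 on the ChN diet (4.22% of all genes), Paxbp1 at -0.41 and Cbr1 at -0.47. On the ChP diet 2 of 43 passed (4.27%), Rwdd2b at -0.92 and Donson at 0.62, and with the mouse as a block for its paired libraries 0 passed. With the CA1, CA3 and DG libraries of mouse 17-154 all left out, 0 passed on the ChN diet. Between CA1 PNs and DGCs, 2 of 41 passed on the ChN diet (5.51%), Donson at -0.78 and Zbtb21 at -0.41. With the same libraries of mouse 17-154 left out, 3 passed, while Zbtb21, at -0.38, no longer did. On the ChP diet 0 of 41 passed in edgeR (4.95%), and 2 with the mouse as a block.

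Between CA3 PNs and DGCs, 0 of 40 passed on the ChN diet (5.18%) and 3 of 40 on the ChP diet (4.42%), namely N6amt1 at -0.69, Mis18a at 1.16 and Pigp at -1.19. With all 81 libraries in 1 fit, the difference between CA3 PNs and DGCs passed for Mis18a and Son (2 of 40, 6.29% of all genes), that between CA1 and CA3 PNs for Rwdd2b at -0.65 and Cbr1 at -0.33 (2 of 43, 5.37%), and that between CA1 PNs and DGCs for Son (1 of 41, 6.32%). With the mouse as a block in that fit, Rwdd2b was at -0.57 and no longer passed, and on the ChP diet Mis18a, at 1.10, no longer passed. A further gene, N6amt1, passed between CA1 and CA3 PNs with the block, at 0.49. The smallest adjusted p of edgeR among the genes was 0.642.

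The levels of the genes in 2N mice on the ChN diet were compared between populations, without the mouse as a block (the plot of levels in 2N mice). At an adjusted p under 0.05 in edgeR, 13 of 42 genes passed between CA1 and CA3 PNs, 12 of 40 between CA1 PNs and DGCs and 21 of 40 between CA3 PNs and DGCs, against 23.3%, 34.3% and 43.7% of all genes. With the CA1, CA3 and DG libraries of mouse 17-154 all left out, 9 of 42 passed between CA1 and CA3 PNs.

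Hunk had the steepest gradient. Mean levels went from 199 CPM in CA1 PNs through 35.9 in CA3 PNs to 3.94 in DGCs, a 58.09-fold difference between the first and last (log2 5.86, adjusted p = 7.65e-11, edgeR). All 6 CA1 libraries, at 154 to 274 CPM, lay above the CA3 libraries, at 29.3 to 42.5 CPM, and these above the DG libraries, at 0 to 9.07 CPM. The fold against DGCs is imprecise because their counts were near 0. Ttc3 and Dop1b were highest in CA3 PNs, at a mean of 1562 and 197 CPM, against 1165 and 135 in CA1 PNs and 970 and 93.6 in DGCs, and each of these steps passed except that of Ttc3 between CA1 PNs and DGCs.

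DGCs held the highest levels of B3galt5 and Ets2. B3galt5 averaged 106 CPM in DGCs against 44.5 in CA1 PNs and 54.4 in CA3 PNs, and Ets2 120 CPM against 66.3 and 68.1. For both genes the CA1 and CA3 levels did not differ beyond their spread. Dscam averaged 145 CPM in DGCs and 82.1 CPM in CA3 PNs (log2 -0.85, adjusted p = 0.0117). Mis18a averaged 12 CPM in CA1 PNs, 5.59 in DGCs and 3.06 in CA3 PNs, and CA3 PNs and DGCs did not differ past the threshold. Hlcs was lowest in CA1 PNs, at 5.1 CPM against 12.9 and 14.2.

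**Figure D4:**
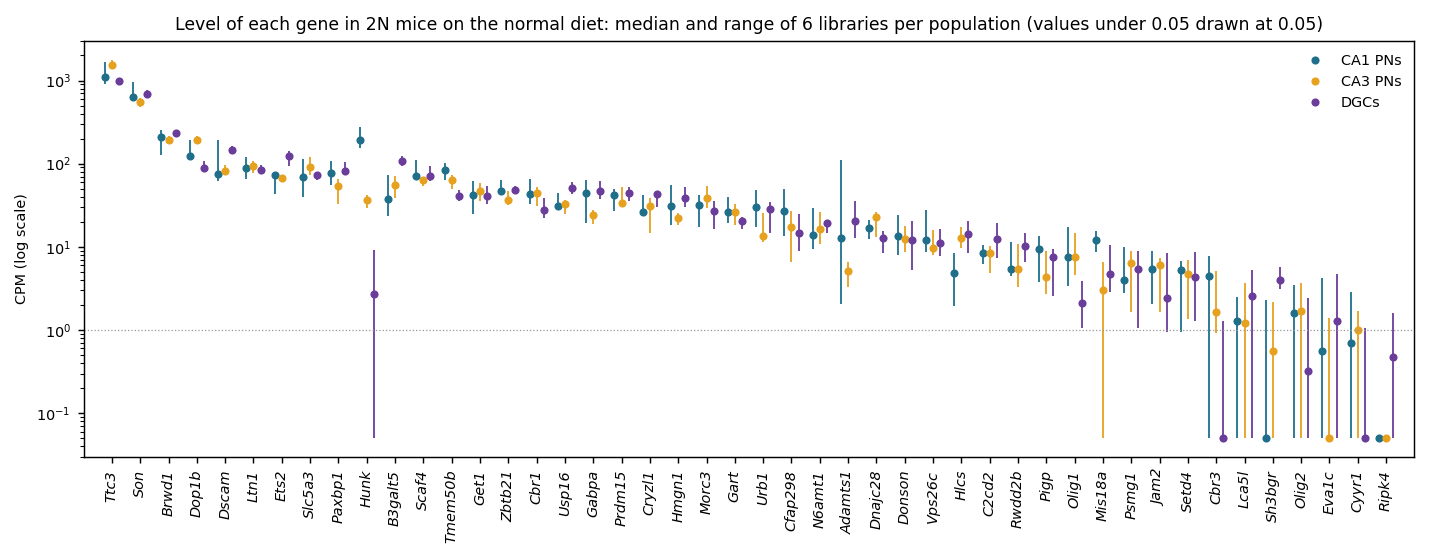
Level in CPM (log axis) of each gene in 2N mice on the normal diet, as the median and range of the 6 libraries of each population, with values under 0.05 CPM drawn at 0.05. Hunk falls from a mean of 199 CPM in CA1 PNs to 3.94 CPM in DGCs, while Ttc3 and Son stay at the top in all 3 populations.

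Place on the chromosome and level were set beside the dose. Across the genes tested, Spearman's rho between LFC and start position ran from -0.23 to 0.11 over the 6 comparisons, and that between LFC and mean CPM from -0.18 to 0.29. These are descriptions across genes of the same libraries. The 25 other Mmu16 genes of the segment had a median LFC of 0.39 to 0.61 in the same comparisons. The 11 Mmu16 genes before the segment, of which 8 or 9 could be tested, had a median of -0.21 to 0.07 (the plot of genes inside and outside the segment). Of those, 1 was higher in Ts, in DGCs on the ChP diet, and 0 in the other 5 comparisons, while 0 to 2 were lower.

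**Figure D5:**
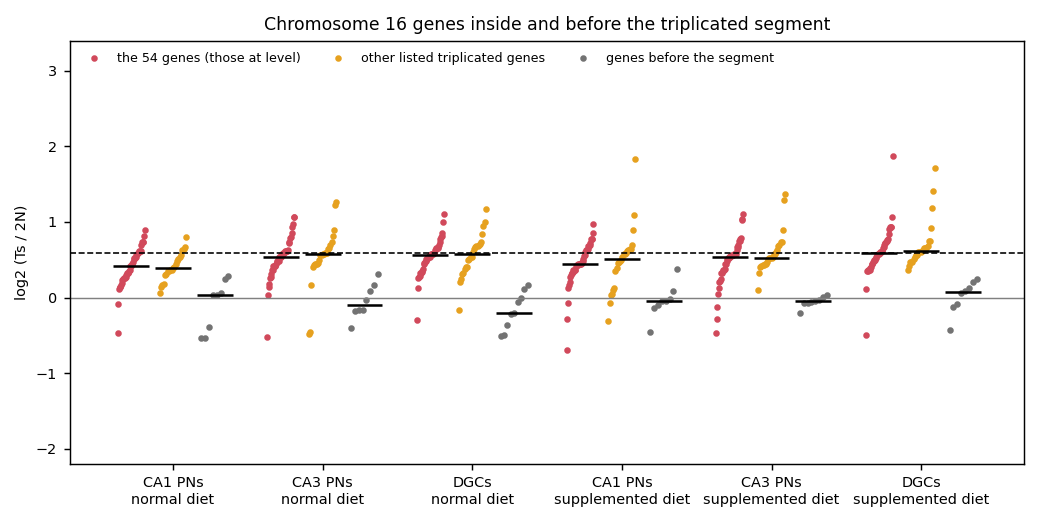
LFC of Ts over 2N (vertical axis, log2) of the genes, of the 25 other triplicated Mmu16 genes and of the 11 Mmu16 genes before the segment in each of the 6 comparisons, with the median as a bar. The medians are 0.42 to 0.58, 0.39 to 0.61 and -0.21 to 0.07.

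The set includes the ETS factors Ets2 and Gabpa, and the promoters of its genes were searched for the ETS core CCGGAAGT, on both strands (reverse ACTTCCGG). RefSeq promoters of the build GRCm38.p6, which is not the build of the counts, were at hand for 45 of the genes, each with 250 bases before and 50 after the start. The core was found in 5 of the 45 genes (11.1%), Cfap298, Gart, Setd4, Usp16 and Vps26c, and in 1164 of 27025 genes overall (4.31%). The shorter letters GGAAG (reverse CTTCC), which the core contains, were found in 75.6% of the genes and 73.9% of all genes. Gart, Usp16 and Vps26c are shown because they hold the core, with 2 matches in Vps26c. Son is shown as it lay above 1.5-fold in DGCs on both diets, and Mis18a as an example of those below. B3galt5, Dscam and Prdm15, also below it there on both diets, are not shown. The letters of the core are not in the windows of Son and Mis18a. The windows are chr16:91646923-91647222 on the minus strand for Gart, chr16:87454735-87455034 on the plus strand for Usp16, chr16:94526580-94526879 on the minus strand for Vps26c, chr16:91647574-91647873 on the plus strand for Son and chr16:90727322-90727621 on the minus strand for Mis18a, printed 5′ to 3′ with the core in capitals.
Gart: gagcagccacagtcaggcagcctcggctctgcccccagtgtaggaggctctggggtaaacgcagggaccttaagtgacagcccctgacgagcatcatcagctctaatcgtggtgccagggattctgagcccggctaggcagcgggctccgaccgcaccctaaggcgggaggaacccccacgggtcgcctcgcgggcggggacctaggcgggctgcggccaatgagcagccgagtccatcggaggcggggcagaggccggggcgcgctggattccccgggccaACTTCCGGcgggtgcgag
Usp16: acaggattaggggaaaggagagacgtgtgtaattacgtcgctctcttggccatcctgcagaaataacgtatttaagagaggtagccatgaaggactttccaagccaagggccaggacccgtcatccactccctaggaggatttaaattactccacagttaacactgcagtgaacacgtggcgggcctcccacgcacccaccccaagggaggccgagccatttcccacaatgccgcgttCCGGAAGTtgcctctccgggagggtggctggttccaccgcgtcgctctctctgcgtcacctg
Vps26c: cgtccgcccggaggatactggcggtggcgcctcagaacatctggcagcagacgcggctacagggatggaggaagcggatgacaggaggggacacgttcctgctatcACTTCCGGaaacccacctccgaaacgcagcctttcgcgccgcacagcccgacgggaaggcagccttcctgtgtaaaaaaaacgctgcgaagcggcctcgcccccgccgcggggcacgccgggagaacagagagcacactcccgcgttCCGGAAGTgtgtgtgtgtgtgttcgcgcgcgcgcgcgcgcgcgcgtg
Son: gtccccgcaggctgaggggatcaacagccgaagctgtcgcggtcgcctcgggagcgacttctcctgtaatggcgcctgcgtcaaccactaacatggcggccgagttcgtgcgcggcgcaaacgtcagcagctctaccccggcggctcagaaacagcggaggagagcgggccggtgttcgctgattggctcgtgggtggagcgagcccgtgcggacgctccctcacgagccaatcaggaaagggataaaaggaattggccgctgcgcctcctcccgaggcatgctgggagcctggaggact
Mis18a: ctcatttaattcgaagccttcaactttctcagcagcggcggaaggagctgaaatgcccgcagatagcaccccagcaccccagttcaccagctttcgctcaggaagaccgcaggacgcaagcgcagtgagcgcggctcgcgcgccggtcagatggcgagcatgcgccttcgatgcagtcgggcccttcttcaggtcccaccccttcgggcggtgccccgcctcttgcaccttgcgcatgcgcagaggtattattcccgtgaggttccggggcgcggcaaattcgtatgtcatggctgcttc

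Gart and Son start close to each other on opposite strands, and their annotated spans share 588 bases. Over the 6 comparisons the LFC of Gart was 0.51 to 0.78 and that of Son 0.54 to 0.78. A match is a description of the letters and not a bound site. Of the 54 genes, 16 overlapped another gene at 1 CPM or more, 12 of them on the opposite strand. Besides the pairs named above these include Scaf4 with Sod1, Pigp with Ttc3 and Rwdd2b with Usp16. For these genes the split of reads between partners is uncertain.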

How the data were processed

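RNA of laser-captured CA1 PNs, CA3 PNs and DGCs was measured in 81 libraries (35 ChN, 46 ChP). The deposited expected counts and TPM per gene were made by the authors with RSEM after STAR alignment to a Gencode annotation of GRCm39. The submitters' processing notes also name FastQC 0.11.9, Trimmomatic 0.39 and Picard 2.26.2. The strand setting of the counting is not given in the sources used here. Of the values above 0, 2.818% were not whole, and expected counts were rounded.

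Genes above 0.1 CPM in 10 or more libraries of a comparison were fitted by edgeR 4.0.16 in R 4.3.3 (TMM, quasi-likelihood, robust), and limma 3.58.1 and DESeq2 1.42.0 were alternatives. The dose test added 0.58 (log2 of 1.5) to the offset of the Ts libraries, and its inversion gave the 95% intervals. The study's covariates and its adjustment by mouse characteristics were not used here. CPM in the text share 1 TMM scaling of all libraries, and sums and figures were made in Python 3.11.15. Floors for single libraries cover counting error only, while the 95% intervals of the LFC also cover the spread between mice. The fit was also run on simulated counts, and no conclusion is drawn from that run here.

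The members, role groups and lists were chosen with earlier results of these data known. Genes given with values by library are the highest of each role group and those off 1.5-fold on the same side in at least 2 comparisons. Donson, Cryzl1, Hunk, Ripk4 and Adamts1, also given with values over libraries, were chosen after their values were seen. The exact test planned for the summed level is not given, since the genes themselves define the genotype. The 3 populations came from the same mice: deviations from group means correlated at a median of 0.104 over 78 pairs of libraries of the same mouse (-0.014 to 0.230) and at -0.007 between different mice, over 7647 genes. The pairing comes from the mouse number in the labels, and the fit with the mouse as a block was an alternative.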

Additional observations from a re-analysis of the deposited data

Results flagged for a closer look

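Among 144 groups of 4 to 10 libraries, the highest or lowest library stood far from the others in 11, and chance flags about 5% of groups. The CA1 library labelled 2N of mouse 17-154 was the high one for Son (955 CPM), Ttc3 (1675 CPM), Dop1b (194 CPM) and the mean log2 CPM of the genes (5.18). The mean log2 CPM was also set apart in the CA1 libraries of mouse 16-357 (5.29, Ts on the ChN diet) and mouse 16-90 (4.91, 2N on the ChP diet). Single genes stood apart in B3galt5 of Ts DGCs on the ChP diet (187 CPM, mouse 14-90), in Dop1b of Ts CA1 PNs on the ChP diet (250 CPM, mouse 14-90) and of Ts DGCs on the ChN diet (183 CPM, mouse 16-490). So did Dscam (130 CPM, mouse 17-173) and Prdm15 (70.4 CPM, mouse 16-490) in Ts DGCs on the ChN diet.

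At an unadjusted p under 0.05, 0 to 3 of 40 to 44 genes differed in LFC in each comparison of diets or populations. Of all genes, 3.22% to 5.51% passed in these comparisons, those of populations being within a diet. The cases in the set numbered 13. Between diets (ChP less ChN) these were Slc5a3 (-0.30) and Pigp (-1.05) in CA3 PNs and Usp16 (0.40) and Cryzl1 (0.46) in DGCs. Between CA1 PNs and CA3 PNs they were Paxbp1 (-0.41) and Cbr1 (-0.47) on the ChN diet and Rwdd2b (-0.92) and Donson (0.62) on the ChP diet. Between CA1 PNs and DGCs on the ChN diet they were Donson (-0.78) and Zbtb21 (-0.41), and between CA3 PNs and DGCs on the ChP diet N6amt1 (-0.69), Mis18a (1.16) and Pigp (-1.19). None passed at an adjusted p under 0.05 in edgeR, where the smallest adjusted p among these was 0.865.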

How the results depend on the processing

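No result changed direction under the alternatives run. Counts higher in Ts kept within 1.5 times under every alternative that kept all libraries, and 127 of 144 counts did so over all comparisons. Those off 1.5-fold moved in CA1 PNs, on the ChN diet from 2 to 0 with library totals and 1 with DESeq2, and on the ChP diet from 1 to 4 with library totals, 2 with limma-voom, and 3 with RLE size factors, DESeq2, no filter or filterByExpr. The diet differences in CA3 PNs went from 2 to 1 with DESeq2, filterByExpr or the CA3 library of mouse 15-145 taken as Ts, and to 4 with limma-voom. With the mouse as a block for paired libraries, differences on the ChP diet went from 2 to 0 between CA1 PNs and CA3 PNs and from 0 to 2 between CA1 PNs and DGCs, and the blocked fit changed no other count by over 1.5 times. The first was 1 with library totals or filterByExpr and the second 1 with library totals. The cause was not tested.

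With 1 library left out, counts higher in Ts ran from 14 (without 2N 15-147) to 25 (without 2N 17-154) in CA1 PNs on the ChN diet, and on that diet from 29 to 32 in CA3 PNs and 30 to 34 in DGCs. On the ChP diet they ran from 26 to 27, 26 to 32 and 29 to 32. Counts off 1.5-fold ran from 1 to 5 (without 2N 17-21), 2 to 4 and 4 (without Ts 17-192 or 2N 17-21) to 8 on the ChN diet, and 1 to 5 (without 2N 16-273), 1 (without 2N 15-334 or Ts 16-206) to 6 (without Ts 15-199) and 4 (without 2N 15-334) to 8 on the ChP diet. Diet differences ran from 0 to 1 in CA1 PNs, 0 (without Ts 14-90) to 4 (without Ts 15-140) in CA3 PNs and 1 to 3 in DGCs. With all libraries of 1 mouse left out, differences between CA1 and CA3 PNs ran from 0 (without 2N 17-154) to 4 and 1 to 2 on the 2 diets. Those between CA1 PNs and DGCs ran from 0 to 4 and 0 to 2, and between CA3 PNs and DGCs from 0 to 1 and 1 to 5. Levels in 2N mice, again without all libraries of 1 mouse, differed in 9 to 15, 9 to 14 and 15 to 21 genes. Depth limited the genes under about 10 CPM, since 3 counts were worth 8.37 CPM in the shallowest library.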
